A study of Mus musculus with 6 samples.

Results

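The 10 genes described here encode proteins of neutrophil granules and cytosol, chosen by symbol from the 14986 genes of the expression table. Of these, 6 belong to the late stages of neutrophil maturation (S100a8, S100a9, Ngp, Camp, Ltf and Lcn2) and 4 to the primary granules made earlier (Mpo, Elane, Prtn3 and Ctsg). All 10 had a row in the table and all 10 passed the filter on low values, an average over the libraries of 1 FPKM or more (fragments per kilobase of exon, scaled to library depth). Polyadenylated RNA was sequenced from mouse long-term haematopoietic stem cells (LT-HSCs) sorted from bone marrow after lineage-positive cells had been depleted, with 1500 cells per library. There were 3 libraries labelled Zcchc8 KO and 3 labelled WT, the genotype wild type. Zcchc8 encodes the central scaffold protein of the NEXT complex, which passes nuclear RNA to the exosome for decay, and the comparison asks how its loss changes the stem cell transcriptome. The labels give no strain, age, sex, type of knockout allele or surface markers of the sort, and nothing states that the libraries came from separate animals, so the spread between them may be technical.

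Neutrophils fill their granules in the order in which the granule proteins are made. Promyelocytes make the primary (azurophil) granules with myeloperoxidase and the serine proteases, whereas myelocytes and later cells make the secondary granules with lactoferrin and cathelicidin and fill the cytosol with the S100A8 and S100A9 calcium-binding proteins. In the transcription of these genes the Ets factor PU.1 and the factor C/EBP-alpha act on the early genes, and C/EBP-epsilon acts on the secondary granule genes. RNA of such genes, those of the primary granules above all, is often detected in haematopoietic progenitors.

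The promoters are shown because the members fall into an early and a late set, and because 2 pairs of them are neighbours. S100a8 and S100a9 lie 22.6 kb apart on chromosome 3, on opposite strands. Prtn3 and Elane lie 3.1 kb apart on chromosome 10, on the same strand. Camp, Ngp and Ltf lie on chromosome 9, with Ngp 570.1 kb from Camp and 596.3 kb from Ltf. Lcn2 is on chromosome 2, Mpo on chromosome 11 and Ctsg on chromosome 14 (GENCODE M21, GRCm38, which is mm10).

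The windows below run from 250 bases before to 50 bases after the start of the gene in RefSeq's GRCm38.p6 annotation and are written 5′ to 3′ on the gene's strand. They belong to S100a8 (chr3:90668821-90669120, plus strand), S100a9 (chr3:90695672-90695971, minus strand), Ngp (chr9:110419558-110419857, plus strand), Lcn2 (chr2:32387690-32387989, minus strand), Mpo (chr11:87793534-87793833, plus strand) and Prtn3 (chr10:79879417-79879716, plus strand). These 6 had the smallest limma p of the members, with both stages among them. Capitals mark matches, on either strand, to an Ets-type, a TATA-type and a C/EBP-type motif, whose letters are given after the sequences.
S100a8 promoter: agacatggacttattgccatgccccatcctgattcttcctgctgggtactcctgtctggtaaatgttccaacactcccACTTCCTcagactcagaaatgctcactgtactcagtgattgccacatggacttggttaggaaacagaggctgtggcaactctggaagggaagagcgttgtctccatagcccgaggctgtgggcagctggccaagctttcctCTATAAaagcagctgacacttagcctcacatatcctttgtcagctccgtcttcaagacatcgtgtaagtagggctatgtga
S100a9 promoter: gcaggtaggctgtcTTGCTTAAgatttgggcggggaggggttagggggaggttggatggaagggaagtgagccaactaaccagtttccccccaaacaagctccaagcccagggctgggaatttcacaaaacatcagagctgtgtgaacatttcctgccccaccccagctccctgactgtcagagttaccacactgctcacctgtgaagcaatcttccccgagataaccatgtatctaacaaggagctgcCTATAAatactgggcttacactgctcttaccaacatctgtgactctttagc
Ngp promoter: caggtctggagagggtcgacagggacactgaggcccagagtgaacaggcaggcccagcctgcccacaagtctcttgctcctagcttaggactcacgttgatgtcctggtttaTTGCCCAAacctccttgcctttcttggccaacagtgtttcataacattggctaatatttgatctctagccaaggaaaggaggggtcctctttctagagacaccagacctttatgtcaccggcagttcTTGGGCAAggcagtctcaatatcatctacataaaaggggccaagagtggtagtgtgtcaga
Lcn2 promoter: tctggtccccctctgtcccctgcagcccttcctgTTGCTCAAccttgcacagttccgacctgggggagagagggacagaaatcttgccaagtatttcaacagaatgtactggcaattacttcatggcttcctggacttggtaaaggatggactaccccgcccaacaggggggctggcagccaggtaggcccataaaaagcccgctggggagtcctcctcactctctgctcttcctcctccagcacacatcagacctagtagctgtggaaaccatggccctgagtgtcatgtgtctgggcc
Mpo promoter: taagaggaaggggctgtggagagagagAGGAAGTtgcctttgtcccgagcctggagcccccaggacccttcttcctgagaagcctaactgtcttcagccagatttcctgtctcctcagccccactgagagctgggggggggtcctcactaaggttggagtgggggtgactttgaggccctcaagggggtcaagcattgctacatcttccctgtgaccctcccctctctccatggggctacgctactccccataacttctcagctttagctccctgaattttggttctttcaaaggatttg
Prtn3 promoter: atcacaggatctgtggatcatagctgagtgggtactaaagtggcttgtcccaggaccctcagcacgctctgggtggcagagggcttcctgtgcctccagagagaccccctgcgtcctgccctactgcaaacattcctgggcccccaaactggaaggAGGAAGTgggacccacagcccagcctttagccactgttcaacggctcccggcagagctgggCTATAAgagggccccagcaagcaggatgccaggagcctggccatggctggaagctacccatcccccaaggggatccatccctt

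The Ets-type motif was also present in the other primary granule genes, Elane and Ctsg, for which 41 bases around it are given (chr10:79886211-79886251, plus strand, and chr14:56102757-56102797, minus strand), with the motif in capitals.
Elane window: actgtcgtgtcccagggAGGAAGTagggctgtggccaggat
Ctsg window: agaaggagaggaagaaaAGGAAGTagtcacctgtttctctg

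The Ets-type motif AGGAAGT was found in the windows of 4 of 4 primary granule genes and in that of 1 of 6 late genes, S100a8. The same letters occurred on either strand in 9.57% of the windows of 27025 genes. The C/EBP-type motif TTGCNNAA was found in 4 of 6 late genes (S100a9, Ngp, Ltf and Lcn2) and in 0 of 4 primary granule genes, against 10.8% of all windows. The TATA-type motif CTATAA was found in both members of each neighbouring pair, S100a8 with S100a9 and Prtn3 with Elane, and in no other member, against 8.36% of all windows. Matches to different motifs did not overlap. In S100a9 the CTATAA match began 1 base before the annotated start, whereas in S100a8, Elane and Prtn3 it began 31, 32 and 33 bases before it. These distances are from the RefSeq starts. The GENCODE start of some members lies elsewhere, for Prtn3 at chr10:79874476, outside its window. The 3 motifs were picked after the windows had been read, so the counts are descriptions without a test, and a match is not evidence of a bound site. Camp had no match to any of them.

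**Figure D1:**
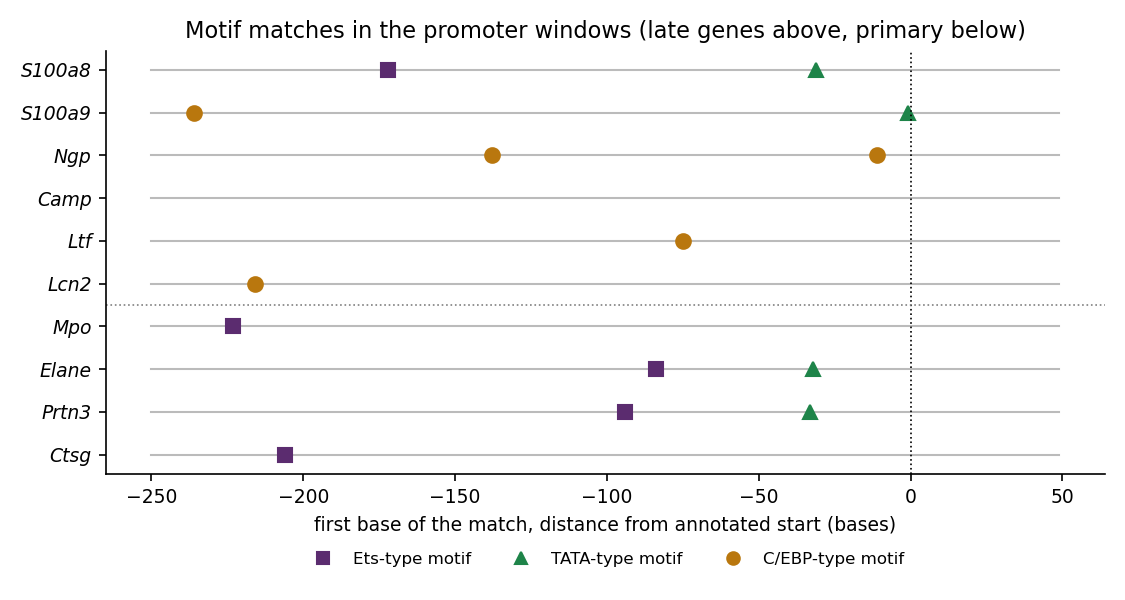
Matches to the 3 motifs in the promoter window of each gene, with the 6 late genes above the dotted horizontal line and the 4 primary granule genes below it. The horizontal axis gives the distance in bases from the annotated start to the first base of the match. The Ets-type motif (squares) is in all 4 primary granule genes, and the C/EBP-type motif (circles) is in 4 of the 6 late genes.

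Values are FPKM per gene symbol as the authors deposited them. The reads behind them, recovered from the smallest steps of the values, came to between 18065356 and 25711904 per library, and the members were covered by 720 to 25331 reads each. Zcchc8 itself was not lower in the libraries labelled KO, at 10.4, 5.54 and 5.92 FPKM in Zcchc8 KO and 8.93, 5.24 and 5.16 FPKM in WT (log2 change 0.15, limma adjusted p = 0.94). A single value over all exons cannot show the loss of some of them, so the table does not check the labels. In bulk RNA, fewer cells of a type and less RNA per cell cannot be told apart. Of 11837 tested genes, 27 passed a limma adjusted p of 0.05 (0.228% of tested genes), of which 21 were higher in Zcchc8 KO (0.177% of tested genes) and 6 were lower (0.0507%).

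The late genes were higher in Zcchc8 KO in all 6 cases by value, and S100a9 was the member that passed the test over all genes. Among the primary granule genes Mpo and Prtn3 were lower and Elane and Ctsg overlapped between the groups, and none passed. The groups did not overlap for 5 of 6 late genes, with Zcchc8 KO above WT, as for 8.24% of all tested genes. For 2 of 4 primary granule genes they did not overlap with Zcchc8 KO below WT, as for 6.99% of all tested genes. At an unadjusted p under 0.05 in limma, 5 of 6 late genes were higher (4.87% of all tested genes were) and 2 of 4 primary granule genes were lower (4.33% of all). The median log2 change was 0.51 for the late genes and -0.19 for the primary granule genes, against 0.00 for all tested genes. The genes were chosen with earlier results of these data known, so these counts are a description, and the difference between the stages was not tested.

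**Figure D2:**
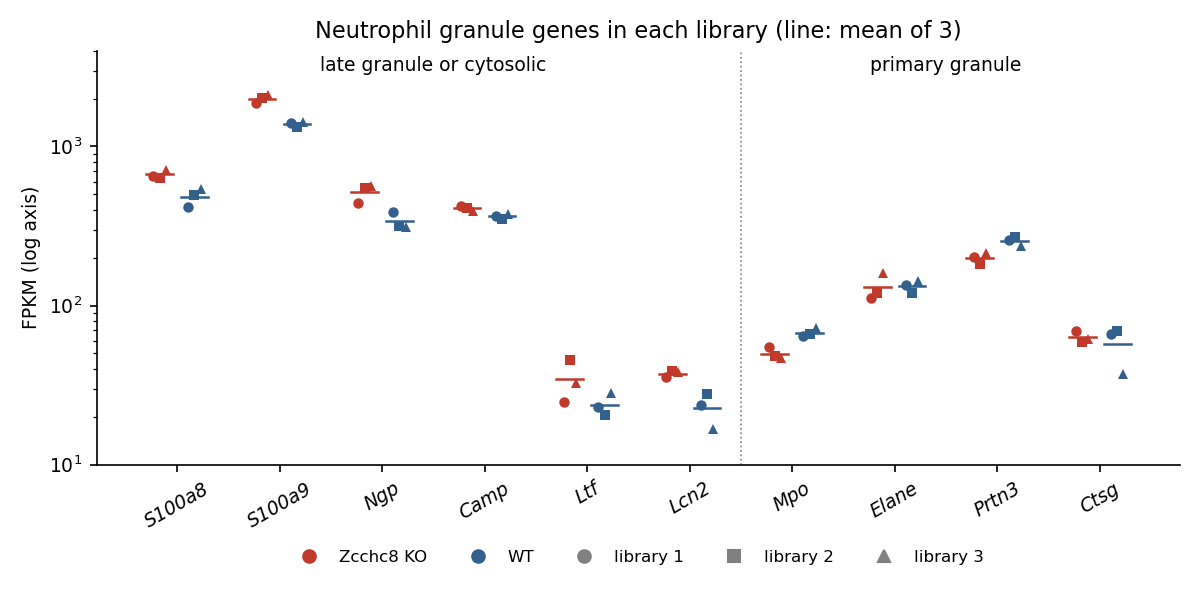
FPKM of the 10 genes in each library on a log axis, with Zcchc8 KO in red on the left of each pair and WT in blue on the right; symbols give the library number and lines the mean of 3. The red and blue points do not overlap for S100a8, S100a9, Ngp, Camp and Lcn2, where Zcchc8 KO is higher, or for Mpo and Prtn3, where it is lower.

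S100a8 and S100a9 encode the subunits of calprotectin, a metal-binding heterodimer that makes up much of the neutrophil cytosol. S100a9 was at 1887, 2021 and 2101 FPKM in the Zcchc8 KO libraries 1 to 3 and at 1412, 1321 and 1426 FPKM in the WT libraries. Every Zcchc8 KO library stood above every WT library, and the gene ranked 63 of 14986 by mean level. S100a9 rose by a log2 change of 0.53 (95% interval 0.40 to 0.66; limma adjusted p = 0.0108). That call was lost without Zcchc8 KO library 2 or 3 or WT library 2, with limma adjusted p of 0.0559, 0.0641 and 0.0582 at log2 changes of 0.52, 0.50 and 0.50, and without limma's variance trend (adjusted p = 0.467).

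S100a8 was at 653.2, 635.8 and 713.3 FPKM in Zcchc8 KO and at 414.8, 493.5 and 539.3 FPKM in WT. The groups did not overlap, and WT library 1 was the lowest of all. Its log2 change was 0.47 ± 0.10 (SE), and it did not pass over all genes (limma adjusted p = 0.156). S100a9 was 2.89, 3.18 and 2.94 times the S100a8 level in Zcchc8 KO and 3.40, 2.68 and 2.64 times in WT, and these ranges overlap.

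Ngp and Camp encode related cathelicidin-type granule proteins; Camp is the precursor of the antimicrobial peptide CRAMP. Ngp was at 439.0, 550.5 and 561.3 FPKM in Zcchc8 KO and at 385.8, 317.4 and 309.9 FPKM in WT. The groups did not overlap, with Zcchc8 KO library 1 and WT library 1 nearest to each other; the fold change of the means was 1.53 and the limma adjusted p 0.129. Camp was at 422.3, 408.0 and 393.9 FPKM in Zcchc8 KO and at 366.1, 348.4 and 375.5 FPKM in WT. Its groups did not overlap either, but the fold change of 1.12 was the smallest of the 6 late genes (log2 change 0.17, 95% interval 0.00 to 0.33, limma adjusted p = 0.54). Ngp exceeded Camp in every Zcchc8 KO library, by 1.04, 1.35 and 1.43 times, and in WT the ratio was 1.054, 0.91 and 0.83, so that the ranges of the groups overlapped.

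Ltf encodes lactoferrin, the iron-binding protein of secondary granules. It was at 24.7, 45.6 and 32.7 FPKM in Zcchc8 KO and at 23.0, 20.3 and 28.0 FPKM in WT, and Zcchc8 KO library 1 lay inside the WT range. The log2 change was 0.48 with a 95% interval of -0.06 to 1.02. Lcn2 encodes lipocalin 2, which binds bacterial siderophores. It was at 35.4, 38.5 and 37.9 FPKM in Zcchc8 KO and at 23.5, 27.6 and 16.7 FPKM in WT, without overlap. Its fold change of 1.65 was the largest of the 10 genes, but the WT libraries varied more (SD 5.53 FPKM) than the Zcchc8 KO libraries (SD 1.65 FPKM), and the limma adjusted p was 0.29. For these 3-against-3 comparisons an exact permutation test (two-sided) gave p = 0.1, the smallest it can give, for each gene without overlap and p = 0.2 for Ltf.

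**Figure D3:**
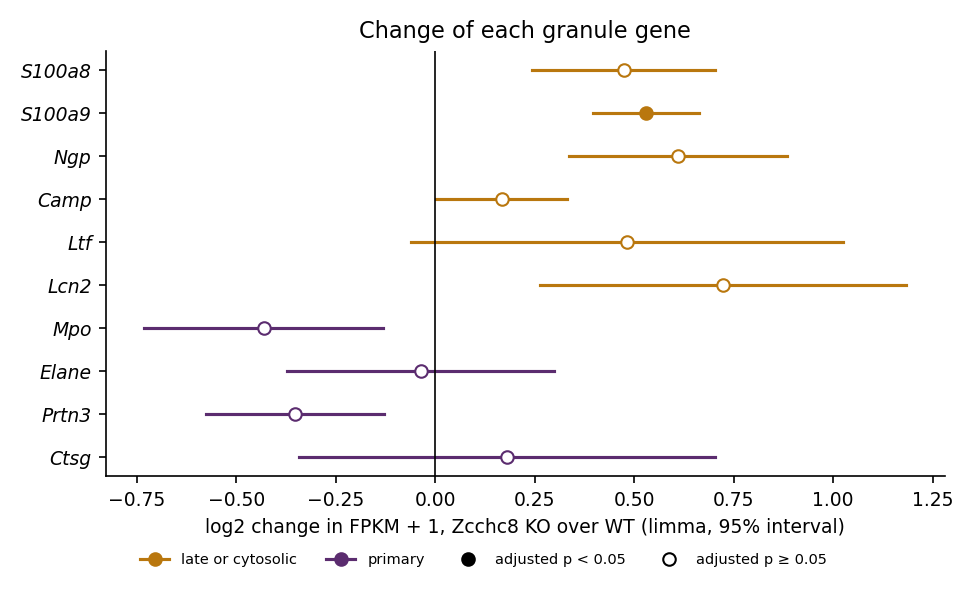
Log2 change of each gene in Zcchc8 KO over WT with its 95% interval from limma; late or cytosolic genes are orange, primary granule genes purple, and the filled circle is the gene with an adjusted p under 0.05. S100a9 is the filled point at 0.53; the intervals of Ltf, Elane and Ctsg include 0.

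None of the primary granule genes passed the test. Mpo, myeloperoxidase, was at 55.2, 48.1 and 46.4 FPKM in Zcchc8 KO and at 64.4, 66.1 and 72.1 FPKM in WT, without overlap (log2 change -0.43, 95% interval -0.73 to -0.13, limma adjusted p = 0.34). Prtn3, proteinase 3, was at 200.5, 182.6 and 214.8 FPKM in Zcchc8 KO and at 257.2, 271.1 and 235.5 FPKM in WT. All 3 Zcchc8 KO libraries were below all 3 WT libraries (log2 change -0.35, 95% interval -0.58 to -0.13, limma adjusted p = 0.29).

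Elane, neutrophil elastase, was at 111.0, 119.8 and 159.7 FPKM in Zcchc8 KO and at 134.3, 120.3 and 141.9 FPKM in WT. Zcchc8 KO held both the lowest and the highest value, and the log2 change was -0.04 with an interval of -0.37 to 0.30. Its neighbour Prtn3 was 1.81, 1.52 and 1.34 times the level of Elane in Zcchc8 KO and 1.91, 2.25 and 1.66 times in WT, so the ratio within the pair overlapped between the groups. Ctsg, cathepsin G, was at 68.9, 59.0 and 61.7 FPKM in Zcchc8 KO and at 66.6, 69.4 and 36.9 FPKM in WT. Its log2 change of 0.18 (95% interval -0.34 to 0.70) rested on the low WT library 3 and was -0.11 without it.

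Ctsg lies in the cluster of granzyme and mast cell protease genes on chromosome 14, of which 3 of 15 listed genes had a value. Gzmb, granzyme B, was at 31.0, 73.4 and 40.3 FPKM in Zcchc8 KO and at 8.98, 6.55 and 8.69 FPKM in WT. It rose by a log2 change of 2.36 (limma adjusted p = 0.0211), a call lost without Zcchc8 KO library 3 (adjusted p = 0.0716) or any of WT libraries 1, 2 and 3 (adjusted p of 0.0775, 0.117 and 0.0719), with the replicate block (adjusted p = 0.0992), without the variance trend (adjusted p = 0.139) and with limma-voom (adjusted p = 0.285). Near Prtn3 and Elane, the protease gene Prss57 was at 5.01 ± 0.454 FPKM in Zcchc8 KO and 6.61 ± 1.88 FPKM in WT (SD, n = 3), and R3hdm4 at 31.6 ± 1.76 FPKM in Zcchc8 KO and 32.2 ± 2.06 FPKM in WT. Med16, a Mediator subunit, was at 15.4 ± 6.81 FPKM in Zcchc8 KO and 7.59 ± 4.205 FPKM in WT, and none of these neighbours passed.

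Summed over the 6 late genes, the level was 3462, 3699 and 3840 FPKM in Zcchc8 KO and 2625, 2528 and 2695 FPKM in WT. Summed over the 4 primary granule genes it was 435.6, 409.5 and 482.7 FPKM in Zcchc8 KO and 522.5, 526.8 and 486.4 FPKM in WT, so that Zcchc8 KO library 3 came close to WT library 3. The ratio of the sums was 8.31 ± 0.625 in Zcchc8 KO and 5.12 ± 0.380 in WT (SD, n = 3), 1.62 times as high, and it did not overlap between the groups. S100a9 made up 54.5% to 54.7% of the late sum in Zcchc8 KO and 52.3% to 53.8% in WT. With S100a8 and S100a9 left out, chosen after seeing this share, the ratio was 2.26 ± 0.246 in Zcchc8 KO and 1.46 ± 0.0931 in WT, 1.55 times as high. For 1 pair across the stages, S100a9 was at 34.2, 42.0 and 45.2 times Mpo in Zcchc8 KO and 21.9, 19.998 and 19.8 times in WT. These ratios share their members with the values above and carry no test of their own.

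**Figure D4:**
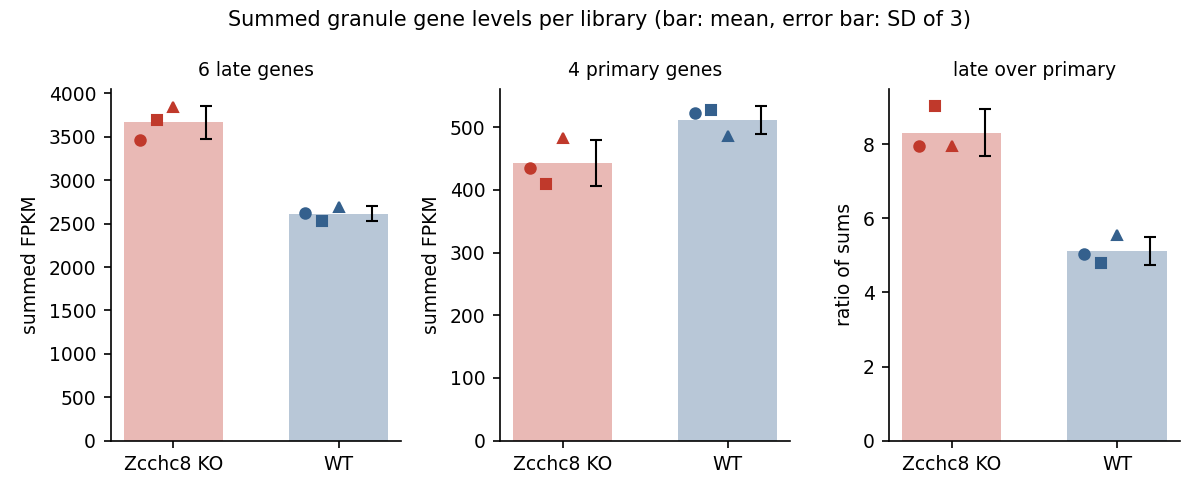
Summed FPKM of the 6 late genes, of the 4 primary granule genes, and the ratio of these sums, per library (points), with the mean (bar) and SD of 3 (error bar); Zcchc8 KO is on the left of each panel. The ratio lies between 7.95 and 9.03 in Zcchc8 KO and between 4.80 and 5.54 in WT.

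Other genes listed for the late granule stage were mixed. Not all of them encode granule proteins, as the list includes the receptor gene Ltb4r1 and the actin-binding protein gene Dstn. Of 23 listed, 16 had a value and were tested, and none passed. At an unadjusted p under 0.05 in limma, 3 were higher and 3 lower (4.87% and 4.33% of all tested genes). The median log2 change was 0.09. Chil3, a chitinase-like protein of mouse neutrophil precursors, was at 118.2, 113.6 and 104.5 FPKM in Zcchc8 KO and at 64.3, 50.1 and 39.0 FPKM in WT, without overlap. Its log2 change of 1.14 just missed the threshold (limma adjusted p = 0.0523) and passed in 3 of 17 other settings. Hp, haptoglobin, was at 41.6 ± 9.52 FPKM in Zcchc8 KO and 29.3 ± 8.18 FPKM in WT (SD, n = 3), and Dstn, the actin-binding protein destrin, at 65.0 ± 10.1 FPKM in Zcchc8 KO and 69.3 ± 7.56 FPKM in WT. Retnlg, a resistin-like protein of mature neutrophils, stood the other way, at 35.2, 24.9 and 29.7 FPKM in Zcchc8 KO and 41.6, 34.7 and 47.6 FPKM in WT, with a small overlap.

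Further genes of that list are named here after their values were seen. Fcnb, a ficolin, is also on the list of granulocyte-monocyte progenitor markers. It was at 28.1, 26.2 and 22.6 FPKM in Zcchc8 KO and 11.95, 9.88 and 16.2 FPKM in WT. Lrg1, a leucine-rich glycoprotein of granules, was at 18.5, 15.6 and 33.4 FPKM in Zcchc8 KO and 7.0003, 4.46 and 6.76 FPKM in WT. Both were without overlap and above WT, with limma adjusted p of 0.18 and 0.116. Mmp9, gelatinase B of the tertiary granules, was at 3.21, 1.46 and 1.79 FPKM in Zcchc8 KO and 3.96, 4.12 and 9.23 FPKM in WT, below it without overlap (limma adjusted p = 0.46). Tcn2 was at 9.16, 16.9 and 20.7 FPKM in Zcchc8 KO and 23.2, 21.2 and 26.2 FPKM in WT. It too was below WT without overlap (limma adjusted p = 0.55).

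Of the other primary granule genes 11 of 12 were tested and none passed, with a median log2 change of 0.02. At an unadjusted p under 0.05 in limma, 1 was higher and 0 lower (4.87% and 4.33% of all tested genes). Lyz2, lysozyme, was at 598.1 ± 20.7 FPKM in Zcchc8 KO and 581.1 ± 13.7 FPKM in WT, and Srgn, the proteoglycan serglycin that packs granule proteins, at 621.2 ± 8.87 FPKM in Zcchc8 KO and 586.6 ± 29.9 FPKM in WT (SD, n = 3). The lysosomal enzyme genes Ctsd (109.1 ± 15.8 FPKM in Zcchc8 KO, 125.6 ± 7.81 in WT) and Gusb (36.1 ± 6.24 in Zcchc8 KO, 37.8 ± 4.07 in WT) also overlapped. Lyz2 and Srgn lay near the level of S100a8, and their groups overlapped. In the list Cst7, a cystatin, was the gene without overlap and is named for that, at 25.1 ± 2.57 FPKM in Zcchc8 KO and 16.5 ± 2.65 FPKM in WT (limma adjusted p = 0.39).

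**Figure D5:**
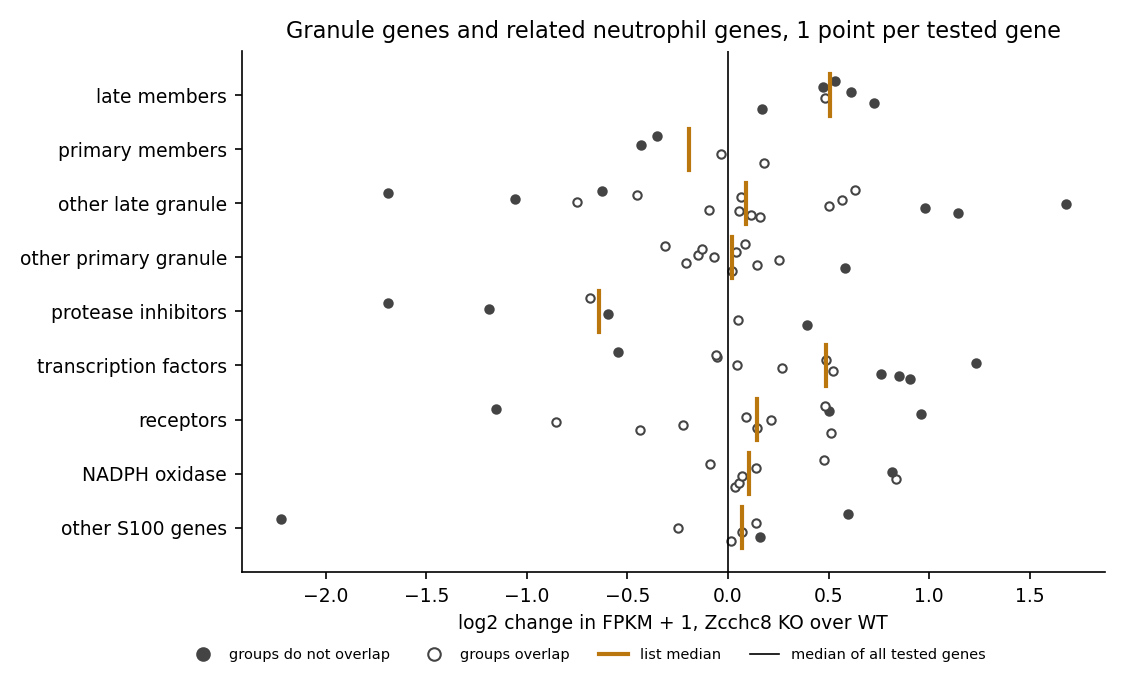
Log2 change in Zcchc8 KO over WT of every tested gene of 9 lists, 1 point per gene, filled where the groups do not overlap; orange lines are list medians and the black line is the median of all tested genes. The late genes described here have a median of 0.51. The genes listed as other late granule genes, not all of which encode granule proteins, spread on both sides of the black line around a median of 0.09.

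The genes on the list of protease inhibitors differed among themselves. Of 6 tested none passed, with 1 higher and 2 lower at an unadjusted p under 0.05 in limma (4.87% and 4.33% of all tested genes). Slpi, an inhibitor of elastase and cathepsin G that is also on the list of other late granule genes, was at 26.1, 11.5 and 6.72 FPKM in Zcchc8 KO and 45.2, 38.1 and 47.6 FPKM in WT, all below (log2 change -1.69, limma adjusted p = 0.184), and it passed without Zcchc8 KO library 1 (adjusted p = 0.0306). Serpinf1, which encodes the secreted serpin PEDF, was at 17.1 ± 3.65 FPKM in Zcchc8 KO and 40.4 ± 9.85 FPKM in WT (SD, n = 3), also without overlap. PEDF does not inhibit proteases, so Serpinf1, among the 2 lower genes, is on the list by family alone. Serpina3g was at 613.0 ± 64.0 FPKM in Zcchc8 KO and 464.5 ± 21.5 FPKM in WT, above it, and Serpinb1a, the main cytosolic inhibitor of the neutrophil serine proteases, was at 84.1 ± 15.7 FPKM in Zcchc8 KO and 80.3 ± 8.39 FPKM in WT. Neighbours and copies within the Serpina3 cluster are alike in sequence, so the value of Serpina3g is uncertain.

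Of the transcription factors of granulocyte development 11 of 14 were tested and none passed. At an unadjusted p under 0.05 in limma, 3 were higher and 1 lower (4.87% and 4.33% of all tested genes). Spi1, which encodes PU.1, was at 65.1, 41.7 and 51.6 FPKM in Zcchc8 KO and 87.9, 73.0 and 69.2 FPKM in WT, below it without overlap (limma adjusted p = 0.39). Cebpe, the secondary granule factor, was at 14.3, 34.8 and 20.4 FPKM in Zcchc8 KO and 18.9, 12.1 and 14.2 FPKM in WT, with overlap. Myb (23.5 ± 1.64 FPKM in Zcchc8 KO, 24.5 ± 1.90 in WT) and Runx1 (8.26 ± 0.559 in Zcchc8 KO, 8.69 ± 1.25 in WT) overlapped too. At lower levels, and named after their values were seen, Cebpa, Cebpb, Cebpd and Gfi1 were each above WT without overlap. These were 4 of the 11 tested, against 8.24% of all tested genes, with limma adjusted p of 0.56, 0.50, 0.50 and 0.45. Cebpa averaged 1.78 FPKM in Zcchc8 KO and 0.47 FPKM in WT, and Cebpb 2.24 FPKM in Zcchc8 KO and 0.81 FPKM in WT. Both thus passed the filter on low values only through the Zcchc8 KO libraries. Cebpd was at 7.80, 8.81 and 7.33 FPKM in Zcchc8 KO and 5.22, 2.61 and 5.60 FPKM in WT, and Gfi1, a repressor needed for neutrophil formation, at 4.74, 4.78 and 3.63 FPKM in Zcchc8 KO and 1.01, 0.34 and 3.37 FPKM in WT.

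Among receptors and adhesion molecules of neutrophils 11 of 14 were tested and none passed, with a median log2 change of 0.14. At an unadjusted p under 0.05 in limma, 1 was higher and 1 lower (4.87% and 4.33% of all tested genes). Csf3r, the receptor of the granulocyte growth factor G-CSF, was at 11.8 ± 2.72 FPKM in Zcchc8 KO and 13.99 ± 3.77 FPKM in WT, and Csf2ra, a chain of the GM-CSF receptor, at 13.6 ± 4.09 FPKM in Zcchc8 KO and 18.6 ± 4.33 FPKM in WT (SD, n = 3). Itgb2, the beta chain of leukocyte integrins, was at 27.9, 17.3 and 19.4 FPKM in Zcchc8 KO and 17.2, 8.15 and 7.87 FPKM in WT, just without overlap. Tlr2, which senses bacterial lipoproteins, was at 1.91, 7.52 and 6.52 FPKM in Zcchc8 KO and 16.3, 12.4 and 7.88 FPKM in WT, below it.

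The oxidase that works with myeloperoxidase in the phagosome showed no passing gene among 8 tested, with a median log2 change of 0.10. At an unadjusted p under 0.05 in limma, 2 were higher and 0 lower (4.87% and 4.33% of all tested genes). Cyba, its small membrane subunit, was at 123.8 ± 14.996 FPKM in Zcchc8 KO and 121.8 ± 24.4 FPKM in WT, and Rac2 at 114.5 ± 11.5 FPKM in Zcchc8 KO and 122.0 ± 14.04 FPKM in WT (SD, n = 3). Rac1 (43.2 ± 5.77 FPKM in Zcchc8 KO, 38.9 ± 1.38 in WT) and Rap1a (33.8 ± 9.13 in Zcchc8 KO, 23.7 ± 4.40 in WT) overlapped as well. The 2 higher genes, named after their values were seen, encode cytosolic subunits. Ncf4 was at 14.5, 11.9 and 16.9 FPKM in Zcchc8 KO and 6.28, 6.66 and 10.8 FPKM in WT, without overlap (limma adjusted p = 0.385). Ncf1 was at 9.54 ± 3.48 FPKM in Zcchc8 KO and 4.87 ± 1.83 FPKM in WT (SD, n = 3), with overlap (limma adjusted p = 0.50).

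Of the other S100 genes 7 were tested and none passed, with a median log2 change of 0.07. At an unadjusted p under 0.05 in limma, 1 was higher and 1 lower (4.87% and 4.33% of all tested genes). S100a1 was at 191.2 ± 6.46 FPKM in Zcchc8 KO and 192.2 ± 39.4 FPKM in WT, S100a10 at 146.2 ± 2.90 FPKM in Zcchc8 KO and 131.2 ± 11.9 FPKM in WT, S100a13 at 87.3 ± 10.8 FPKM in Zcchc8 KO and 103.6 ± 6.89 FPKM in WT, and S100a11 at 74.6 ± 8.36 FPKM in Zcchc8 KO and 72.5 ± 19.3 FPKM in WT. Of these 4, the groups of S100a10 did not overlap. Those of S100a6 and S100a5, named after their values were seen, did not overlap either. S100a6 was at 54.7, 37.9 and 49.5 FPKM in Zcchc8 KO and 34.4, 27.6 and 30.1 FPKM in WT (limma adjusted p = 0.336). S100a5 was at 3.06 FPKM in Zcchc8 KO library 1, listed at 0 in Zcchc8 KO libraries 2 and 3, and at 7.05, 6.58 and 5.75 FPKM in WT (limma adjusted p = 0.208).

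Markers of other cells were measured beside these genes. Of 12 markers of mature neutrophils 8 had a value, and their sum overlapped between the groups, from 55.1 to 78.3 FPKM in Zcchc8 KO and 70.9 to 92.8 FPKM in WT. Retnlg made up the largest part, at 29.9 ± 5.13 FPKM in Zcchc8 KO and 41.3 ± 6.49 FPKM in WT (SD, n = 3). Csf3r and Cd177 were also detected in every library. Of the 7 tested, 3 were higher and 4 lower in Zcchc8 KO by value, and none passed. Fpr1 among them was listed at 0 in Zcchc8 KO library 3 and WT library 1. Itgam was at 0.64 ± 0.080 FPKM in Zcchc8 KO and 0.56 ± 0.407 FPKM in WT. For granulocyte-monocyte progenitors 9 of 10 markers had a value. Their sum was 121.8 to 145.1 FPKM in Zcchc8 KO and 119.4 to 130.6 FPKM in WT. Cd34 made up the largest part of it, at 57.3 ± 8.06 FPKM in Zcchc8 KO and 65.9 ± 5.78 FPKM in WT (SD, n = 3). No sum without Cd34 was taken, so this sum says little of the other markers. The groups did not overlap for 2 of the 9, Fcnb and Gfi1, named for that, with Zcchc8 KO above WT (8.24% of all tested genes). For the other 7 they overlapped. Markers of LT-HSCs all had a value (14 of 14), with a sum of 336.2 to 391.3 FPKM in Zcchc8 KO and 434.0 to 494.1 FPKM in WT without overlap, and Procr, Hlf and Mecom were detected in every library.

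Sums were also without overlap for markers of eosinophils, with 170.4 to 210.9 FPKM in Zcchc8 KO and 1.054 to 3.25 FPKM in WT over the 5 of 9 with a value. Of these, 4 rose in limma (Prg2, Prg3, Epx and Ear6), against 0.177% of all tested genes called higher. Each was listed at 0 in 2 of 3 WT libraries and averaged under 1 FPKM in WT. All 4 thus passed the filter on low values only through the Zcchc8 KO libraries. Each passed the test in 16 of 17 other settings, limma-voom being the exception. Erythroid markers summed to 436.0 to 465.0 FPKM in Zcchc8 KO and 115.2 to 149.0 FPKM in WT (8 of 9 with a value). Of the 7 tested, 4 rose in limma (Hba-a1, Hba-a2, Hbb-bt and Car1), against 0.177% of all tested genes called higher. Among these 4, Hbb-bt passed in 17 of 17 other settings and Hba-a1 in 10. Reads of the alpha-globin genes Hba-a1 and Hba-a2 can hardly be told apart, so both values are uncertain. The beta-globin genes Hbb-bt and Hbb-bs are also alike in sequence, so the value of Hbb-bt is uncertain too. Markers of mast cells and basophils summed to 67.4 to 112.4 FPKM in Zcchc8 KO and 22.3 to 37.4 FPKM in WT (5 of 8 with a value), most of it Gzmb and Fcer1a in Zcchc8 KO. Cpa3 (4.17 ± 1.63 FPKM in Zcchc8 KO, 5.96 ± 1.44 in WT) and Mcpt8 (2.19 ± 1.81 in Zcchc8 KO, 3.39 ± 1.40 in WT) of that list overlapped, with the lower means in Zcchc8 KO.

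Markers of T and NK cells summed to 310.2 to 323.4 FPKM in Zcchc8 KO and 189.0 to 232.4 FPKM in WT (4 of 8 with a value). Nkg7 made up 93.2% to 96.0% of that sum in Zcchc8 KO and 91.8% to 97.9% in WT, and without it the sums overlapped, at 12.6 to 21.2 FPKM in Zcchc8 KO and 4.84 to 15.5 FPKM in WT. The 2 of 8 monocyte markers with a value summed to 28.7 to 39.5 FPKM in Zcchc8 KO and 11.6 to 26.6 FPKM in WT. The 7 of 8 B cell markers with a value summed to 64.0 to 90.5 FPKM in Zcchc8 KO and 804.0 to 918.1 FPKM in WT, of which Igkc, an immunoglobulin light chain gene, made up 92.8% to 94.3% in WT. Igkc was listed at 0 in Zcchc8 KO libraries 1 and 2 and fell in limma, as in 16 of 17 other settings. Over all tested genes 0.0507% were called lower. Igkc averaged 0.45 FPKM in Zcchc8 KO, so it passed the filter on low values only through the WT libraries. Without Igkc the sums lay the other way and did not overlap, at 64.0 to 90.5 FPKM in Zcchc8 KO and 52.3 to 60.4 FPKM in WT. The sums without Nkg7 and without Igkc were chosen after the values were seen. The part of these cell types in the levels of the granule genes was not tested.

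By the distance between centred log2 profiles over the 6 libraries, the 3 tested genes most like S100a9 were Rrm2, a ribonucleotide reductase subunit (distance 0.125), the predicted gene Gm11964 (0.133) and Uck2, a uridine-cytidine kinase (0.152). Rrm2 was at 52.5, 57.5 and 59.4 FPKM in Zcchc8 KO and 42.3, 34.97 and 40.7 FPKM in WT. Those most like Mpo were Ripk3, a kinase of necroptosis (0.124), Ppp3ca, a calcineurin subunit (0.132), and Alkbh5, an RNA demethylase (0.136). No other member was among these nearest genes.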

How the data were processed

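RNA from 6 libraries of sorted mouse LT-HSCs, 3 per genotype, was compared. The values are FPKM per gene symbol as the authors deposited them. The submitters' processing notes name build mm10 and fastp, Bowtie2 and featureCounts, with no versions. Neither strand use nor the handling of reads with more than 1 match is given in the sources used here. Bowtie2 aligns without splicing, so reads over exon junctions can be lost.

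Groups and replicate numbers came from the sample titles. Symbols were matched to GENCODE M21 (14669 of 14986 genes). FPKM times exon length came out as whole reads within 0.05 for 97.9% to 98.3% of values below 100 reads per library. The values carry no molecular identifiers, so reads overstate independent molecules. Replicates of a group differed beyond counting error (chi-square of 55.0 to 78.5 per gene between pairs of libraries).

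Genes averaging 1 FPKM or more were tested on log2(FPKM + 1), a scale that understates changes of low genes, with limma 3.58.1 (lmFit, eBayes with trend) in R 4.3.3, two-sided, with Benjamini-Hochberg adjustment over all 11837 tested genes. All adjusted p-values come from limma, and folds compare mean FPKM. The procedure was also run on simulated data with independent normal noise and known changes. Such data follow the assumptions of limma, so that run does not check the calls made here. Promoter windows are RefSeq's (GRCm38.p6) and matched all 10 members. Same-numbered libraries did not deviate together (correlations of 0.02, 0.01 and 0.00), so the numbers were not treated as pairs.

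The members and the lists were chosen with earlier results of these data known. Beside the members, the text names the genes of each pathway list that passed or, where none did, the 4 of highest mean level, and for S100a9 and Mpo the 3 genes nearest in profile. Markers of other cells are given as sums, with those that passed named. S100pbp, which is not of the family, was taken off the S100 list after its value was seen. Some genes are named after their values were seen, as stated there. Alternatives changed the pseudocount, filter, scaling, variance model, block, test and libraries. Plots used matplotlib 3.10.9 (Python 3.11.15).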

Additional observations from a re-analysis of the deposited data

How the results depend on the processing

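Over 17 other settings, the 6 late genes kept a positive log2 change and Mpo and Prtn3 a negative one in each. Much of this was fixed in advance. Changing the filter, the variance trend, the robust option or the block leaves the log2 change as it was. Where the groups do not overlap, another pseudocount or a left-out library cannot turn its sign. Apart from S100a9, which passed in 13 of them, no member passed in any. Calls over all genes numbered 8 without a variance trend, 11 with a replicate block and 8 with limma-voom on recovered reads, against 27 as reported, and between 11 and 19 when a library was left out. The late genes called higher numbered 0 without a variance trend and 0 to 1 when a library was left out, against 1 as reported. The block changed no call of a member. The primary granule genes called lower stayed at 0. The median log2 change was 0.49 to 0.63 for late genes and -0.29 to -0.14 for primary granule genes when a library was left out, and -0.27 for the primary granule genes under quantile scaling. The ratio of the sums was 1.55 to 1.69 times as high in Zcchc8 KO. The cause of these shifts was not tested.

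Log2 changes near 0 turned sign in single settings, none of them passing. When a library was left out they ran from -0.19 to 0.069 for Elane, -0.11 to 0.34 for Ctsg, -0.20 to 0.046 for Gusb, -0.20 to 0.020 for Dstn, -0.031 to 0.22 for Serpinb1a, -0.10 to 0.00096 for Myb, -0.16 to 0.024 for Runx1, -0.16 to 0.14 for S100a1, -0.15 to 0.24 for S100a11, -0.053 to 0.19 for Cyba, -0.075 to 0.015 for R3hdm4 and -0.11 to 0.37 for Zcchc8. Under quantile scaling they were -0.023 for Lyz2, -0.065 for S100a1 and -0.044 for Cyba, and under TPM -0.020 for S100a1.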
